A study of Mus musculus with 18 samples.

Results

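The comparison described here is between the distant tumours of mice given IFN-alpha-pMC cells and the distant tumours of untreated mice. It comprised 6 of the 18 libraries of the series, chosen by their labels alone: the 3 libraries of IFN-alpha-pMC left tumours and the 3 libraries of control left tumours. MO4 is an ovalbumin-carrying derivative of the C57BL/6 mouse melanoma line B16F10, and C57BL/6 mice received 100000 MO4 cells under the skin of both hindlimbs on day 0. The pMC are proliferating myeloid cells made from induced pluripotent stem cells, and the IFN-alpha-pMC are the same kind of cell made to produce interferon alpha. On days 5, 6 and 7, 1000000 IFN-alpha-pMC were injected around the right tumour only, so the left tumour received no cells. A further 3 left libraries came from mice given pMC without interferon on the right, and control mice received no treatment. RNA was taken on day 11. The labels give neither age nor sex and do not say whether each library came from its own animal, and p-values then cover only the spread among these libraries, which may be technical.

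Type I interferons bind the receptor encoded by Ifnar1 and Ifnar2, which switches on genes with an interferon-stimulated response element (ISRE) through transcription factors that include the IRF family. Interferon gamma, made mainly by T and NK cells, acts at gamma-activated sites (GAS) and drives the guanylate binding proteins, the immunity-related GTPases, the CXCR3 ligands and the machinery of antigen presentation. In tumours these programmes are known to accompany lymphocyte and monocyte entry. A change in a tumour that was not injected is the measure usually called an abscopal or distant effect.

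The 6 libraries held 14346091 to 20670004 gene counts, and all 18 libraries 14346091 to 23430259, and 3 counts, the limit that a count of 0 allows, corresponded to 0.209 CPM at the lowest depth. CPM are counts per 1000000 gene counts, here scaled by the TMM factors of edgeR. The label melanoma fitted the data: the pigment genes Dct, Tyr and Mlana were present in every library, with Dct at 18660, 12380 and 12180 CPM in the IFN-alpha-pMC left libraries and 10310, 11030 and 10700 CPM in the left controls. Pluripotency genes other than Klf4 were at or near the detection limit, with 5 of 10 at 0 in all 18 libraries. Klf4, the 1 of 10 expressed enough to be tested, had 4.29, 5.01 and 9.89 CPM in the IFN-alpha-pMC left libraries. In the left controls it had 4.57, 5.64 and 4.74 CPM. Several library measures moved with the groups. Read pairs that matched no annotated feature in the counting made up 6.12%, 4.15% and 4.37% of the IFN-alpha-pMC left libraries, against 7.90%, 8.79% and 10.42% of the left controls. A skeletal muscle score, the mean log2 level of 25 muscle genes centred over all 18 libraries, was 2.22, 1.97 and 1.25 in the IFN-alpha-pMC left libraries, against 0.60, -3.70 and -2.17 in the left controls. Neither measure overlapped between the groups, and in exact two-sided permutation tests each gave p = 0.1, the smallest value that 3 libraries against 3 allow. Library 1 of the IFN-alpha-pMC left group stood apart, with a mean Spearman correlation of 0.968 with its own group, against 0.983 and 0.980 for the other two.

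Of 14849 genes tested, 987 (6.65%) passed, of which 601 (4.05%) were higher and 386 (2.6%) lower in the IFN-alpha-pMC left tumours than in the left controls at an adjusted p under 0.05, by the quasi-likelihood test of edgeR with Benjamini-Hochberg adjustment over all genes. The median log2 fold change over all genes was 0.07. The genes with the smallest p-values were Apol6 (adjusted p = 0.000367), Ch25h (adjusted p = 0.000752) and Gbp11 (adjusted p = 0.00104), which were singled out after their values were seen. Ch25h encodes the interferon-induced cholesterol 25-hydroxylase, and it had 4.98, 5.75 and 3.26 CPM in the IFN-alpha-pMC left libraries against 1.02, 0.94 and 0.948 CPM in the left controls. Apol6, an apolipoprotein L family member, had 13.9, 17.2 and 14.5 CPM in the IFN-alpha-pMC left libraries against 2.54, 3.69 and 2.62 CPM in the left controls. Neither gene overlapped between the groups, with log2 fold changes of 2.26 ± 0.27 for Ch25h and 2.37 ± 0.24 for Apol6 (SE). Lack of overlap alone was common: all 3 IFN-alpha-pMC left libraries lay above every left control for 25.8% of tested genes. They lay below every left control for 23.9%. The number of calls fell whichever left library was left out. It was 394, 177 and 494 without IFN-alpha-pMC left 1, 2 and 3 in turn, and 119, 113 and 86 without left control 1, 2 and 3. Such fits also hold fewer samples, so a lost call does not single out the library left out. The fit of these 6 libraries alone called 3062 genes. Omission of IFN-alpha-pMC left 1, IFN-alpha-pMC right 3 and control right 3, the libraries least like their groups, called 4331. Once the muscle score entered the fit as covariate, 129 genes were higher and 13 lower at the threshold, and 132 of the 987 kept their call. The score itself separated the left groups, so this fit can tell the score from the treatment only poorly. A call lost with the score therefore has no single reading. Counts without each library and with the muscle score are given with the gene groups that hold several calls. The calls of each group are to be read against the shares over all tested genes, 4.05% higher and 2.6% lower.

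**Figure D1:**
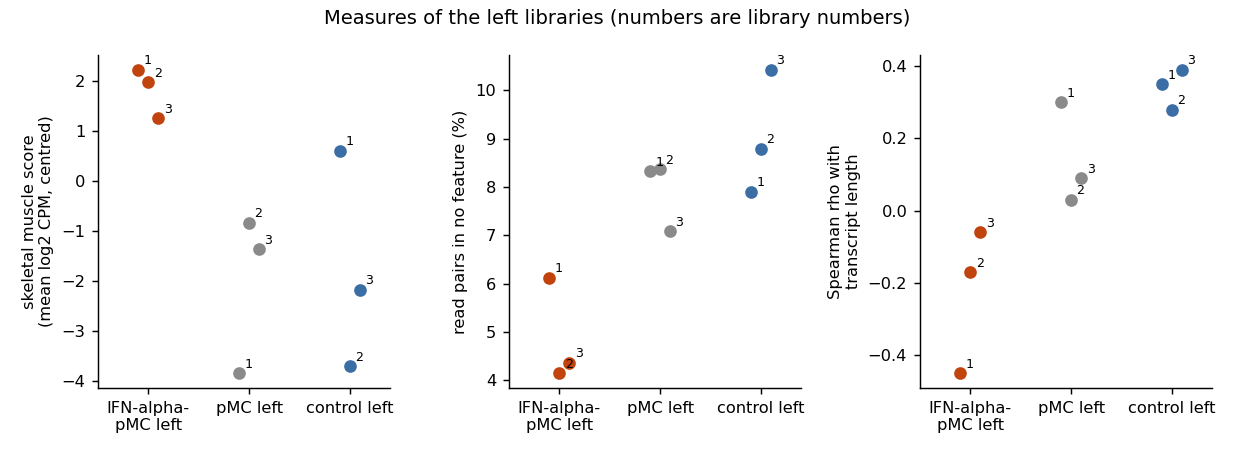
Measures of the left libraries. Each point is 1 library of the IFN-alpha-pMC, pMC and control left groups (3 each), with its number, for the skeletal muscle score (centred mean log2 CPM), the share of read pairs in no annotated feature (percent) and the Spearman rho of gene level, relative to the mean of the 18 libraries, with transcript length. The IFN-alpha-pMC libraries lie above the controls in the muscle score (1.25 to 2.22 against -3.70 to 0.60) and below them in the share in no feature (4.15% to 6.12% against 7.90% to 10.42%) and in rho (-0.45 to -0.06 against 0.28 to 0.39).

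Genes of the type I interferon response were higher as a group in the distant tumour. Of 38 listed and tested, 21 rose and 0 fell, with a median log2 fold change of 0.75, and their summed level was 4840 to 5880 CPM in the IFN-alpha-pMC left libraries against 2940 to 3730 CPM in the left controls. The count was 19, 9 and 13 without IFN-alpha-pMC left 1, 2 and 3, 4, 8 and 5 without left control 1, 2 and 3, and 17 with the muscle score. To show what these genes and the interferon gamma genes carry in their promoters, 3 called genes are printed from 250 bases before to 50 bases after the RefSeq transcription start (mouse build GRCm38.p6), 5′ to 3′ on the coding strand, with ISRE cores (GAAA, any 2 bases, GAAA) and GAS sites (TTCNNNGAA), searched on both strands, in capitals. Ifit1 lies at chr19:34640639-34640938 on the plus strand and has ISRE cores starting 104 and 85 bases before the start. Gbp2 lies at chr3:142620413-142620712 on the plus strand and has 1 ISRE core 59 bases before the start. Tgtp1 lies at chr11:48992197-48992496 on the minus strand and has an ISRE core 77 bases and a GAS site 88 bases before the start.
Ifit1: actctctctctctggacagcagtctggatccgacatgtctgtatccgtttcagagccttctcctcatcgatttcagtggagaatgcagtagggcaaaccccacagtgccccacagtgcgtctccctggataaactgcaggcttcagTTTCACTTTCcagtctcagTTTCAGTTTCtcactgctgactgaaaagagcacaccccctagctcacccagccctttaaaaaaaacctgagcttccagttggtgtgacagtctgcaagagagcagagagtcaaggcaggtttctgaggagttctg
Gbp2: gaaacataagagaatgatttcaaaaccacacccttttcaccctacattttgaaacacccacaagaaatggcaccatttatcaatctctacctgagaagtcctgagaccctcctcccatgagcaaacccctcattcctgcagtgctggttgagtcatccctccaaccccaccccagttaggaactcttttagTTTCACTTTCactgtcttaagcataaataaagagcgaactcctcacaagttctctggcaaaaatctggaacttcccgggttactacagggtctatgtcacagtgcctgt
Tgtp1: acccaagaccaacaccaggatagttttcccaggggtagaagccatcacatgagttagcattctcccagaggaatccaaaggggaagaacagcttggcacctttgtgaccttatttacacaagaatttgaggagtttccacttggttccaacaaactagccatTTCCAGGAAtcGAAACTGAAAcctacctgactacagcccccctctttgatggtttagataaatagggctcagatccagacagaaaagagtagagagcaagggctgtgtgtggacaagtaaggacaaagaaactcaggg
An ISRE core occurred in the promoters of 3.99% of the 27025 genes with a listed start and in 4.01% of the tested genes. It occurred in 66 (15%) of the 441 higher genes that have a promoter in that table and in 6 (2.04%) of the 294 lower ones. It was present in 14 (51.9%) of the 27 matched genes of the type I list and in 10 (66.7%) of the 15 matched genes of the interferon gamma list. A GAS site occurred in 9.55% of all promoters, in 8.35% of the tested genes, in 12.5% of the higher genes and in 7.14% of the lower genes. It was present in 7 (25.9%) of the matched type I genes and in 7 (46.7%) of the matched interferon gamma genes. These are matches of letters in a window, not measured binding.

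Zbp1 (ENSMUSG00000027514), an innate sensor of Z-form nucleic acid, had 310.5, 338.4 and 294 CPM in the IFN-alpha-pMC left libraries against 97.7, 129.5 and 117.3 CPM in the left controls. The groups were far apart, and the log2 fold change was 1.45 ± 0.20 (SE; adjusted p = 0.00187). Ifit1 (ENSMUSG00000034459), whose product binds viral RNA that lacks a self cap, had 176.4, 199 and 174 CPM in the IFN-alpha-pMC left libraries against 74.9, 98.7 and 77.4 CPM in the left controls. The 3 treated values were within a narrow range and above all controls, a log2 fold change of 1.13 ± 0.19 (adjusted p = 0.00538). Isg20, an exonuclease, had 17.1, 18.1 and 15.2 CPM in the IFN-alpha-pMC left libraries against 4.23, 6.04 and 5.63 CPM in the left controls (adjusted p = 0.00265). Ifi44 had 47.5, 76.9 and 62.5 CPM in the IFN-alpha-pMC left libraries against 13.4, 23.7 and 20.5 CPM in the left controls (adjusted p = 0.00538). These 4 genes passed the test with each of the 6 left libraries left out. Irf7, the master factor of the interferon alpha genes, had 85.5, 108.2 and 118 CPM in the IFN-alpha-pMC left libraries against 42.3, 55 and 55.4 CPM in the left controls. It rose by 1.03 ± 0.18 on the log2 scale (adjusted p = 0.0065), and only leaving out left control 1 ended the call (adjusted p = 0.0534). Transcripts of Mx1 (log2 fold change 1.15) and Ifit3 (0.98) also rose, with calls that ended without left control 1 (adjusted p = 0.0643 and 0.0705) or left control 3 (0.0534 and 0.0636). The call of Ifit3 also ended with the length and GC offset (0.142), as did that of the effector chemokine Ccl5 (0.0526). Isg15, the ubiquitin-like modifier, was less even, with 206.3, 117.8 and 100.9 CPM in the IFN-alpha-pMC left libraries against 40.5, 66.7 and 50.9 CPM in the left controls. Its call (adjusted p = 0.0279) held in 1 of the 6 leave-out fits, that without IFN-alpha-pMC left 3 (0.026), and reached 0.115 without left control 1.

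Apart from Ifng, described below, the interferon genes named here were barely detected. Ifna2, Ifna4, Ifnk, Ifnl2 and Ifnl3 had 0 counts in all 18 libraries, and Ifnb1 had 3 counts over the IFN-alpha-pMC left libraries against 4 over the left controls. By edgeR 0 of the 6 tested ligand and receptor genes passed, with 2 at an unadjusted p under 0.05, against 5365 of all 14849 genes, and DESeq2 called 1. The log2 fold change was 0.03 for Ifnar1 (adjusted p = 0.893), 0.07 for Ifnar2 (0.701) and 0.47 for Ifngr1 (0.0847).

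The interferon gamma response stood out more, with 20 of 24 tested genes higher, 0 lower and a median log2 fold change of 1.22. The median was the same with Ido1, which had 0 control counts, at its lower bound. Their summed level was 8460 to 10800 CPM in the IFN-alpha-pMC left libraries against 3140 to 4380 CPM in the left controls. The count was 21, 13 and 15 without IFN-alpha-pMC left 1, 2 and 3, 10, 13 and 10 without left control 1, 2 and 3, and 14 with the muscle score. Cxcl9 (ENSMUSG00000029417), a CXCR3 ligand that attracts activated T cells, had 208.5, 392.3 and 264.4 CPM in the IFN-alpha-pMC left libraries against 73.8, 96.7 and 89.6 CPM in the left controls. The IFN-alpha-pMC values varied widely but all exceeded the controls, a log2 fold change of 1.73 ± 0.24 (adjusted p = 0.00187). The related ligand Cxcl10 had 225.1, 471.6 and 337.2 CPM in the IFN-alpha-pMC left libraries against 123.2, 140.3 and 112.7 CPM in the left controls (adjusted p = 0.00538). Cxcl11 had 4.59, 4.47 and 3.10 CPM in the IFN-alpha-pMC left libraries against 0.565, 1.01 and 0.948 CPM in the left controls, a log2 fold change of 2.27 ± 0.38 (adjusted p = 0.00538). The transcripts of all 3 genes rose in all 6 leave-out fits.

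Several GTPases that defend cells against intracellular pathogens rose. Iigp1 (ENSMUSG00000054072) had 2050, 2220 and 1579 CPM in the IFN-alpha-pMC left libraries against 435.3, 657.8 and 576.3 CPM in the left controls, a log2 fold change of 1.81 ± 0.27 (adjusted p = 0.00358). Gbp2, shown above with its ISRE core, had 730, 1079 and 816.7 CPM in the IFN-alpha-pMC left libraries against 281.8, 350 and 323 CPM in the left controls (log2 fold change 1.46 ± 0.22, adjusted p = 0.00358). Neither gene overlapped between the groups. Gbp8 had 49.5, 40.3 and 32.9 CPM in the IFN-alpha-pMC left libraries against 5.25, 10.6 and 9.59 CPM in the left controls, a log2 fold change of 2.27 ± 0.35 (adjusted p = 0.00358). Tgtp1 had 488.5, 460.5 and 342.1 CPM in the IFN-alpha-pMC left libraries against 100.7, 153.6 and 132.6 CPM in the left controls (adjusted p = 0.00358). Members of the Gbp and Tgtp families are near-identical to each other in places, so counts of single members are uncertain. Irf1, an interferon-induced transcription factor, had 224.6, 315.2 and 228.4 CPM in the IFN-alpha-pMC left libraries against 104.5, 144.5 and 116.6 CPM in the left controls (adjusted p = 0.00538). These 5 calls held in all 6 leave-out fits. Cd274, which encodes the checkpoint ligand PD-L1, had 130.5, 180.5 and 164.4 CPM in the IFN-alpha-pMC left libraries against 41.8, 80.5 and 71.2 CPM in the left controls, without overlap. Its log2 fold change was 1.30 ± 0.27 (adjusted p = 0.0156), and the call ended without IFN-alpha-pMC left 2 (0.0661), left control 1 (0.0923) or left control 3 (0.0718). Ido1, a tryptophan-degrading enzyme, had 25 counts over the IFN-alpha-pMC left libraries and 0 over the left controls, at least 8.13-fold higher with a floor of 3 counts over the group (adjusted p = 0.0348). That call held without IFN-alpha-pMC left 1 or 3 and ended without each other left library, to at most 0.12. Gbp7 (adjusted p = 0.054), Irgm1 (0.0704) and Irgm2 (0.0702) did not pass.

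**Figure D2:**
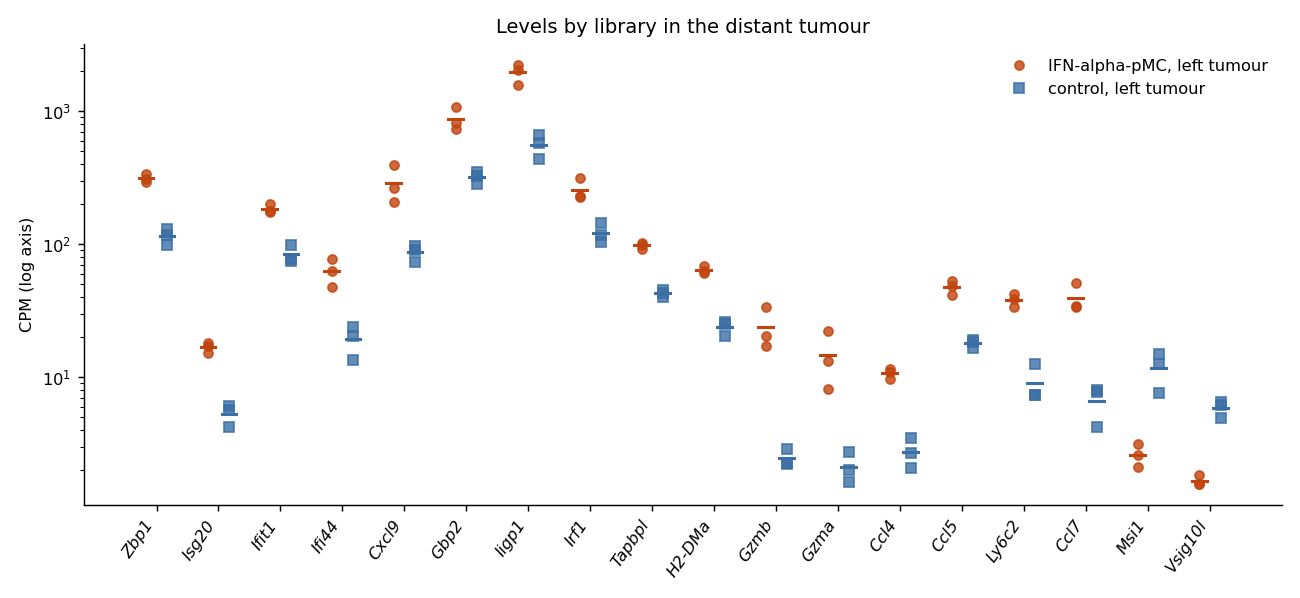
Levels of named genes by library in the distant tumour. Each point is the CPM of 1 library on a log axis, IFN-alpha-pMC left beside control left for each gene (3 each), and bars are group means. Interferon-induced genes such as Iigp1 (1579 to 2220 against 435.3 to 657.8 CPM) and lymphocyte genes such as Gzmb (17.2 to 33.8 against 2.22 to 2.90 CPM) separate without overlap. Of all tested genes 25.8% separate in this direction.

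Antigen presentation rose in part. In the MHC class I list 7 of 19 tested genes were higher and 0 lower (median log2 fold change 0.70), and in the class II list 6 of 12 were higher and 0 lower (median 1.10). Tapbpl, the peptide editor TAPBPR, had 98.1, 102.5 and 92.5 CPM in the IFN-alpha-pMC left libraries against 42.6, 45.2 and 40 CPM in the left controls. Both groups were tight, and the log2 fold change of 1.20 ± 0.18 (adjusted p = 0.00358) held in all 6 leave-out fits. Psmb8, a subunit of the immunoproteasome that cuts peptides for class I, had 87.1, 69.2 and 53.7 CPM in the IFN-alpha-pMC left libraries against 15.1, 24.5 and 21.8 CPM in the left controls. It rose by 1.77 ± 0.35 (adjusted p = 0.0123), a call that ended without left control 1 (0.0717) or left control 3 (0.0668). The nonclassical class I gene H2-T23 rose by 1.51 (adjusted p = 0.00964), and its call ended without left control 1 (0.0643) or left control 3 (0.0548). The classical genes H2-D1 (log2 fold change 0.54, adjusted p = 0.0682) and H2-K1 (0.59, 0.0878) and their light chain B2m (0.37, 0.232) did not pass, and class I genes share sequence that makes single-gene counts uncertain. H2-DMa, a chain of the class II peptide loader, had 61, 68.8 and 62.3 CPM in the IFN-alpha-pMC left libraries against 20.4, 25 and 26.2 CPM in the left controls. It rose by 1.42 ± 0.24 (adjusted p = 0.00557) in all 6 leave-out fits. The class II chain H2-Aa had 479.1, 493.5 and 437.9 CPM in the IFN-alpha-pMC left libraries against 134.4, 212 and 213.4 CPM in the left controls. Although the groups did not overlap, its call (adjusted p = 0.039) ended with any of the 6 left libraries left out, to at most 0.14. The partner chain H2-Ab1 (adjusted p = 0.0502) did not pass. Over both lists the class I count was 5, 5 and 6 without IFN-alpha-pMC left 1, 2 and 3 and 1, 4 and 1 without left control 1, 2 and 3. The class II count was 4, 1 and 2 without IFN-alpha-pMC left 1, 2 and 3 and 1 without any one left control. With the muscle score each list had 1 call, and with the length and GC offset class I had 8 and class II 3.

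Transcripts of T cells and of cytotoxic effectors were higher in the distant tumour. In bulk RNA, more cells of a type and more RNA per cell cannot be told apart. In the T cell list 12 of 28 tested genes were higher and 0 lower (median log2 fold change 1.18), with a summed level of 180, 143 and 126 CPM in the IFN-alpha-pMC left libraries against 57.7, 71.3 and 81.5 CPM in the left controls. In the cytotoxic effector list 13 of 19 were higher and 0 lower, with a median of 1.77, or 1.62 with Gzmd at its lower bound, and a summed level of 405, 289 and 227 CPM in the IFN-alpha-pMC left libraries against 85.7, 121 and 107 CPM in the left controls. Gzmb (ENSMUSG00000015437), the main death-inducing protease of cytotoxic granules, had 33.8, 20.3 and 17.2 CPM in the IFN-alpha-pMC left libraries against 2.26, 2.22 and 2.90 CPM in the left controls. Every IFN-alpha-pMC library was several times above every control, a log2 fold change of 3.26 ± 0.43 (adjusted p = 0.00171). Gzma, another granzyme, had 22.4, 13.2 and 8.10 CPM in the IFN-alpha-pMC left libraries against 1.64, 2.01 and 2.73 CPM in the left controls. It rose by 2.76 ± 0.48 (adjusted p = 0.00671), and the adjusted p was 0.0658 with the muscle score. Ccl5, a chemokine of activated T cells, had 41.6, 53 and 48.1 CPM in the IFN-alpha-pMC left libraries against 16.6, 18.5 and 18.9 CPM in the left controls (adjusted p = 0.00187). Ccl4 had 11.6, 10.9 and 9.67 CPM in the IFN-alpha-pMC left libraries against 2.09, 3.49 and 2.68 CPM in the left controls (adjusted p = 0.00358). These 4 genes kept their call in all 6 leave-out fits.

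Ifng, which encodes interferon gamma itself, had 3.06, 3.79 and 2.39 CPM in the IFN-alpha-pMC left libraries against 0.565, 0.805 and 0.558 CPM in the left controls. The groups did not overlap and the adjusted p was 0.00961, with the call ending without left control 1 (0.0636) or left control 3 (0.068). The perforin gene Prf1, whose product opens the target membrane, had 3.14, 5.26 and 4.29 CPM in the IFN-alpha-pMC left libraries against 1.13, 1.88 and 1.17 CPM in the left controls. It passed (adjusted p = 0.0228) and did so in 2 of 6 leave-out fits, those without IFN-alpha-pMC left 1 or 3, reaching 0.121 without left control 3. Cd3g, part of the CD3 complex, had 9.49, 9.29 and 6.47 CPM in the IFN-alpha-pMC left libraries against 2.03, 3.89 and 4.07 CPM in the left controls. Its call (adjusted p = 0.0182) likewise held without IFN-alpha-pMC left 1 or 3 only, and was 0.0934 without left control 1. Cd3e, of the same complex, did not pass (log2 fold change 0.66, adjusted p = 0.219). It had 3.4, 3.3 and 3.8 CPM in the IFN-alpha-pMC left libraries against 1.5, 2.6 and 2.7 CPM in the left controls. Cd8a, the CD8 co-receptor, had 11.5, 10.6 and 8.42 CPM in the IFN-alpha-pMC left libraries against 2.37, 4.50 and 4.52 CPM in the left controls, a separation whose call (adjusted p = 0.042) was lost in each of the 6 leave-out fits, up to 0.153. Cd4 overlapped, with 2.37, 4.87 and 3.42 CPM in the IFN-alpha-pMC left libraries and 2.15, 2.28 and 4.63 CPM in the left controls (adjusted p = 0.624). The T cell receptor constant gene Trbc1 was uneven, with 14.9 CPM in IFN-alpha-pMC left 1 against 3.69 and 2.5 CPM in the other two. Of the checkpoint and regulatory list 4 of 19 were higher and 0 lower, a count that was 2, 1 and 2 without IFN-alpha-pMC left 1, 2 and 3, 0, 1 and 0 without left control 1, 2 and 3, and 1 with the muscle score. Tnfrsf9, the costimulatory receptor 4-1BB, had 28.3, 11.1 and 14 CPM in the IFN-alpha-pMC left libraries against 4.40, 6.04 and 5.02 CPM in the left controls (adjusted p = 0.0337, held only without IFN-alpha-pMC left 2 or 3, and up to 0.123). Foxp3, the factor of regulatory T cells, had 1.15, 0.934 and 0.815 CPM in the IFN-alpha-pMC left libraries and 0.452, 1.01 and 1.17 CPM in the left controls, which overlap (adjusted p = 0.875). Ctla4 (adjusted p = 0.0503), Pdcd1 (0.103) and Lag3 (0.108) did not pass. Without IFN-alpha-pMC left 1, 2 and 3 the T cell count was 4, 4 and 8 and the cytotoxic count 8, 9 and 12. Without left control 1, 2 and 3 the T cell count was 0, 0 and 1 and the cytotoxic count 4, 6 and 4, and with the muscle score the counts were 2 and 7. With an offset for transcript length and GC content, which also moved with the groups, they were 5 and 9.

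NK cell genes moved in the same direction, with 9 of 19 tested members higher and 0 lower (median log2 fold change 1.87; summed level 171 to 253 CPM in the IFN-alpha-pMC left libraries against 62.4 to 88.5 CPM in the left controls). Fcer1g, the signalling chain shared by NK and myeloid Fc receptors, had 147.9, 121.4 and 122.1 CPM in the IFN-alpha-pMC left libraries against 43.2, 56.7 and 60.1 CPM in the left controls. It rose by 1.29 ± 0.23 (adjusted p = 0.00838), a call lost only without left control 1 (0.0633). The activating receptor Cd226 had 4.44, 4.33 and 2.77 CPM in the IFN-alpha-pMC left libraries against 0.395, 0.805 and 0.892 CPM in the left controls (adjusted p = 0.00838, and 0.0567 without left control 1). Ncr1, which encodes the NK receptor NKp46, had 1.53, 2.11 and 0.924 CPM in the IFN-alpha-pMC left libraries against 0.621, 0.269 and 0.335 CPM in the left controls. It passed at 0.0255 and lost its call without IFN-alpha-pMC left 2 (0.108), left control 2 (0.0946) or left control 3 (0.118). The list's count was 4, 3 and 8 without IFN-alpha-pMC left 1, 2 and 3, 1, 2 and 2 without left control 1, 2 and 3, 1 with the muscle score and 3 with the length and GC offset. Of the B and plasma cell list edgeR called 0 of 8 tested genes, and DESeq2 called 1. At an unadjusted p under 0.05, 4 of the 8 were higher, against 2766 of all 14849 genes.

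Monocyte and macrophage genes were higher as a group, but most of their calls were lost without any one left control. In the monocyte and macrophage list 15 of 27 tested genes were higher and 0 lower (median log2 fold change 0.96), with summed levels of 3270 to 4090 CPM in the IFN-alpha-pMC left libraries against 2180 to 2500 CPM in the left controls. Ly6c2 (ENSMUSG00000022584), a surface marker of inflammatory monocytes, had 33.7, 38.9 and 42 CPM in the IFN-alpha-pMC left libraries against 7.34, 7.32 and 12.6 CPM in the left controls. The log2 fold change was 2.07 ± 0.29 (adjusted p = 0.00223). Ccl7, a chemokine that draws monocytes through CCR2, had 51.3, 33.6 and 34 CPM in the IFN-alpha-pMC left libraries against 7.68, 7.99 and 4.24 CPM in the left controls (log2 fold change 2.58 ± 0.40, adjusted p = 0.00392). Both genes rose in all 6 leave-out fits. Ccl2, the other main CCR2 ligand, had 45.3, 31.8 and 33.9 CPM in the IFN-alpha-pMC left libraries against 11.4, 8.26 and 6.13 CPM in the left controls (adjusted p = 0.0103). Its call ended without left control 2 (0.054) or left control 3 (0.068) and with the muscle score (0.0863). The complement gene C1qa had 210.8, 211.7 and 202.3 CPM in the IFN-alpha-pMC left libraries against 93.2, 112.4 and 116.6 CPM in the left controls (adjusted p = 0.0326), and lost its call in each leave-out fit. Csf1r, the receptor that sustains macrophages, did not pass (log2 fold change -0.20, adjusted p = 0.571), nor did Lyz2 (0.91, 0.208). The list's count was 7, 7 and 9 without IFN-alpha-pMC left 1, 2 and 3, 3, 3 and 2 without left control 1, 2 and 3, and 2 with the muscle score.

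Among cytokines, Tnf had 2.45, 3.59 and 2.39 CPM in the IFN-alpha-pMC left libraries against 0.734, 1.07 and 0.781 CPM in the left controls, and its call (adjusted p = 0.0156) held only without IFN-alpha-pMC left 1 or 3, reaching 0.0908 without left control 3. Il6 had 36 counts over the IFN-alpha-pMC left libraries and 1 over the left controls, a ratio of 35.1 with an exact 95% counting interval of 5.91 to 1430 (adjusted p = 0.0393, and over 0.05 in every leave-out fit, up to 0.138). Of the conventional dendritic cell list 3 of 13 tested genes were higher and 0 lower, and this was 2, 1 and 1 without IFN-alpha-pMC left 1, 2 and 3, 0, 1 and 0 without left control 1, 2 and 3, and 0 with the muscle score. Irf8, a factor of monocytes and cross-presenting dendritic cells, had 32, 38.6 and 33 CPM in the IFN-alpha-pMC left libraries against 14.9, 17.7 and 15.5 CPM in the left controls. It rose by 1.11 ± 0.21 (adjusted p = 0.0103), and its call ended without left control 1 (0.0656) or left control 3 (0.068). Xcr1, the chemokine receptor of cross-presenting dendritic cells, had 4.13, 5.31 and 5.87 CPM in the IFN-alpha-pMC left libraries against 1.47, 2.42 and 2.79 CPM in the left controls (adjusted p = 0.046, over 0.05 in every leave-out fit, up to 0.16). Of the plasmacytoid dendritic cell list 1 of 12 was higher, and of the neutrophil list 0 of 6 passed by edgeR or DESeq2. At an unadjusted p under 0.05, 1 neutrophil gene was higher, against 2766 of all 14849 genes.

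**Figure D3:**
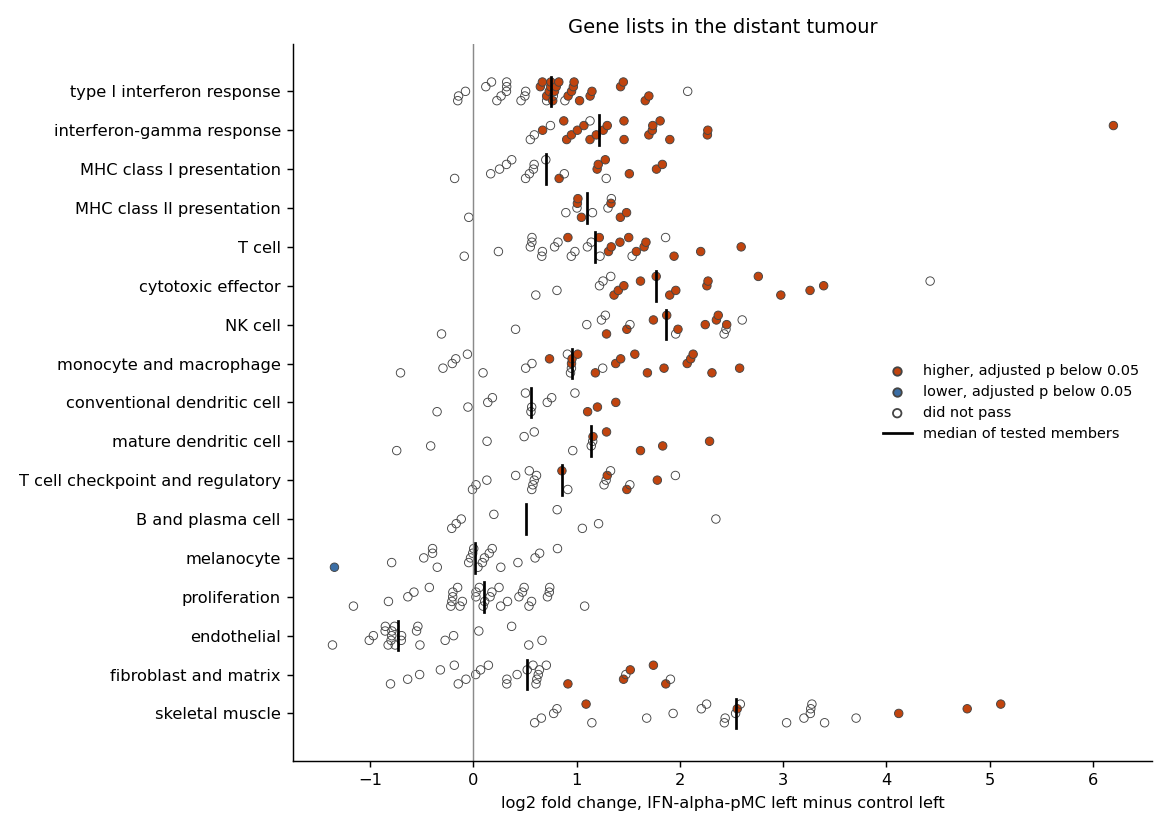
Gene lists in the distant tumour. Each point is a tested gene, at its log2 fold change (IFN-alpha-pMC left minus control left), with filled points for adjusted p under 0.05 and a bar at the list's median. Medians run highest in skeletal muscle (2.54), NK cell (1.87) and cytotoxic effector (1.77) lists, and near 0 for melanocyte (0.02) and proliferation (0.10). The fitted values of Ido1 and Gzmd, which had 0 control counts, depend on the prior count.

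Melanocyte and cell-cycle genes showed few calls, and lists of this size hold few at the shares over all tested genes (4.05% higher, 2.6% lower). In the melanocyte list 0 of 20 tested genes rose and 1 fell (median log2 fold change 0.02), with summed levels of 48000 to 51100 CPM in the IFN-alpha-pMC left libraries and 43900 to 44900 CPM in the left controls. Tyr, which encodes the enzyme tyrosinase, had 4425, 2491 and 2347 CPM in the IFN-alpha-pMC left libraries against 1934, 2020 and 1981 CPM in the left controls, with library 1 far above the rest (adjusted p = 0.126). Mlana had 4385, 2143 and 2055 CPM in the IFN-alpha-pMC left libraries against 1520, 1712 and 1648 CPM in the left controls (adjusted p = 0.113). Ednrb, the endothelin receptor of the melanocyte lineage, which endothelium also expresses, fell by 1.35 ± 0.37 on the log2 scale (adjusted p = 0.0441), a call held in 1 of 6 leave-out fits, that without IFN-alpha-pMC left 1 (0.045). Of 31 tested proliferation genes edgeR called 0. At an unadjusted p under 0.05, 7 were higher and 4 lower, against 2766 and 2599 of all 14849 genes. DESeq2 called 2 higher and 1 lower. Without the 3 libraries least like their groups (IFN-alpha-pMC left 1, IFN-alpha-pMC right 3 and control right 3) edgeR called 7 higher and 3 lower. Mki67, the Ki-67 antigen, had 171, 110.5 and 120.1 CPM in the IFN-alpha-pMC left libraries against 323.6, 264.2 and 310 CPM in the left controls. The groups did not overlap, yet its adjusted p was 0.0742. Pcna, the replication clamp, pointed the other way, with 553.2, 372.8 and 293.2 CPM in the IFN-alpha-pMC left libraries against 254.5, 250.3 and 224.9 CPM in the left controls (adjusted p = 0.0982).

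In the list of p53 targets and cell death genes 6 of 20 were higher and 0 lower. Casp1, the inflammasome protease, had 31.2, 18.8 and 17.5 CPM in the IFN-alpha-pMC left libraries against 4.97, 7.45 and 6.97 CPM in the left controls. Its log2 fold change was 1.80 ± 0.32 (adjusted p = 0.00838). Gsdmd, the pore former that caspase-1 cleaves in pyroptosis, had 23.8, 29.5 and 23.6 CPM in the IFN-alpha-pMC left libraries against 10.2, 14.6 and 13.5 CPM in the left controls (adjusted p = 0.00927). Neither overlapped, and leaving out left control 1 alone ended both calls (0.0599 for Casp1 and 0.0633 for Gsdmd). Mlkl, the effector of necroptosis, rose by 0.77 (adjusted p = 0.014) and lost its call without IFN-alpha-pMC left 2 (0.0643), left control 1 (0.0796) or left control 3 (0.0768). The stress factor Atf3 had 32.2, 30.8 and 29.8 CPM in the IFN-alpha-pMC left libraries against 9.77, 11.6 and 9.20 CPM in the left controls, and rose by 1.6 ± 0.26 (adjusted p = 0.00538) in all 6 leave-out fits. The list's count was 3, 2 and 4 without IFN-alpha-pMC left 1, 2 and 3, 0, 3 and 2 without left control 1, 2 and 3, and 3 with the muscle score. Of 22 hypoxia and glycolysis genes 4 rose and 0 fell, among them Car9, a carbonic anhydrase induced by low oxygen, with 37.8, 28.7 and 55.5 CPM in the IFN-alpha-pMC left libraries against 17.1, 11.8 and 15.4 CPM in the left controls (adjusted p = 0.0228). That call held without IFN-alpha-pMC left 1 or 2 only, up to 0.0969 without left control 3. The hypoxia count was 2, 2 and 1 without IFN-alpha-pMC left 1, 2 and 3, 0 without any one left control and 1 with the muscle score.

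Skeletal muscle genes were frequent among the largest fold changes. The 12 largest rises among called genes of at least 1 CPM in a left group were Tceal7, Pvalb, Mylpf, Smpx, Myl1, Yipf7, Myoz1, Tspan8, Ppp1r14c, Mylk4, Klhl31 and Abra, and of these Pvalb, Mylpf, Smpx, Myl1, Myoz1, Klhl31 and Abra are known as genes of striated muscle. In the muscle list 5 of 25 tested genes were higher and 0 lower (median 2.54), with summed levels of 1800, 1490 and 966 CPM in the IFN-alpha-pMC left libraries against 515, 75.4 and 106 CPM in the left controls. Mylpf, a fast-fibre myosin light chain, had 393.3, 177.9 and 104.2 CPM in the IFN-alpha-pMC left libraries against 19.4, 1.07 and 3.90 CPM in the left controls. The spread was wide in both groups, with a log2 fold change of 4.78 ± 1.15 (adjusted p = 0.0314), and the call held only without IFN-alpha-pMC left 3 or left control 1, up to 0.132 without left control 3. Casq1, the calcium store protein of muscle, had 17.9, 25.2 and 19.4 CPM in the IFN-alpha-pMC left libraries against 4.52, 2.62 and 3.46 CPM in the left controls (adjusted p = 0.00819, and 0.054 and 0.0548 without left control 2 and 3). Tceal7 had 281 counts over the IFN-alpha-pMC left libraries and 2 over the left controls, a ratio of 137 with a 95% counting interval of 37.6 to 1140 (adjusted p = 0.00675, and 0.0522 without left control 3). Ckm (adjusted p = 0.0653) and Acta1 (0.243), which encode muscle creatine kinase and actin, did not pass, and in Acta1 left control 1 had 164.3 CPM against 0.805 and 9.48 CPM in the other two. The list's count was 1, 1 and 5 without IFN-alpha-pMC left 1, 2 and 3, 5, 0 and 0 without left control 1, 2 and 3, and 0 with the muscle score, which is made of these genes. Different amounts of the hindlimb muscle next to the tumour in the samples and expression in the tumour itself cannot be told apart here.

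Stromal lists were mixed. In the fibroblast and matrix list 5 of 27 tested genes were higher and 0 lower. The count was 1 without IFN-alpha-pMC left 1 and 0 without any other left library or with the muscle score. Dcn, the matrix proteoglycan decorin, had 20, 24.3 and 25 CPM in the IFN-alpha-pMC left libraries against 10.3, 7.12 and 6.69 CPM in the left controls. The groups did not overlap, but the call (adjusted p = 0.0397) ended in each leave-out fit, up to 0.143, and at 0.263 with the muscle score. Ccl11, the eosinophil chemokine eotaxin, which stromal cells make and which was singled out after its values were seen, had 2.68, 3.93 and 3.48 CPM in the IFN-alpha-pMC left libraries against 0.79, 0.537 and 0.669 CPM in the left controls (adjusted p = 0.00171). In the endothelial list 0 of 22 passed by edgeR, and 12 were lower at an unadjusted p under 0.05, against 2599 of all 14849 genes. Of the 22, 16 lay below all controls in all 3 IFN-alpha-pMC libraries, against 23.9% of all tested genes. The list's summed level was 308, 300 and 335 CPM in the IFN-alpha-pMC left libraries against 489, 438 and 478 CPM in the left controls. DESeq2 called 4 of its genes lower, and edgeR called 11 lower when only these 6 libraries were fitted and 12 lower without the 3 libraries least like their groups. Cdh5, the junction protein VE-cadherin, had 17.3, 16 and 13.4 CPM in the IFN-alpha-pMC left libraries against 29.7, 29.6 and 32 CPM in the left controls (adjusted p = 0.0685).

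Among the lower genes no listed programme gave more than 1 call. The 12 largest falls among called genes of at least 1 CPM in a left group were Tle2, Slc16a8, Msi1, C530008M17Rik, Efnb3, Celsr2, Bahcc1, Pnma5, Vsig10l, Ttbk1, Ccdc120 and Pik3c2b. Msi1 (ENSMUSG00000054256), the RNA-binding protein Musashi of neural progenitors, had 2.60, 2.11 and 3.15 CPM in the IFN-alpha-pMC left libraries against 7.62, 12.6 and 15 CPM in the left controls. It fell by 2.16 ± 0.36 on the log2 scale (adjusted p = 0.00557) in all 6 leave-out fits, and at 0.0798 with the muscle score. Vsig10l had 1.84, 1.57 and 1.58 CPM in the IFN-alpha-pMC left libraries against 6.21, 4.90 and 6.47 CPM in the left controls (adjusted p = 0.0065), also in all 6 leave-out fits. Tle2, a co-repressor of the Groucho family, had 5 counts over the IFN-alpha-pMC left libraries against 51 over the left controls (adjusted p = 0.0123), with calls lost without IFN-alpha-pMC left 2 (0.0632) or left control 3 (0.07). Celsr2, a cadherin of planar cell polarity, had 7.89, 6.29 and 5.54 CPM in the IFN-alpha-pMC left libraries against 23.4, 21.9 and 25.8 CPM in the left controls, a clear separation whose call (adjusted p = 0.0348) ended in each leave-out fit, up to 0.118. Per1, a clock gene that glucocorticoids also induce, had 34.3, 21.8 and 32.6 CPM in the IFN-alpha-pMC left libraries against 40.1, 71.4 and 151.6 CPM in the left controls (adjusted p = 0.04), held only without left control 1 (0.0413). The lower genes had longer transcripts and a higher GC content, with medians of 4361.5 bases and 56.5%, than the higher genes, with 2645 bases and 45%, and than all tested genes, with 3189 bases and 49.7%. Across 14395 genes the log2 fold change correlated with length at a Spearman rho of -0.42 and with GC at -0.34, as a description across genes, which are not independent. With length and GC as an offset 362 genes were higher and 213 lower, and the part of length and GC in single calls was not tested further.

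The distant tumours of the IFN-alpha-pMC mice also differed from those of mice given pMC without interferon. In this contrast 572 genes (3.85%) passed, of which 403 (2.71%) were higher and 169 (1.14%) lower. It shares its IFN-alpha-pMC libraries with the main comparison, so the values are given side by side. For pMC left tumours against left controls edgeR called 0 genes, with 119 at an unadjusted p under 0.05. Against pMC, 15 of 38 type I interferon genes, 15 of 24 interferon gamma genes, 9 of 19 cytotoxic genes, 5 of 28 T cell genes, 7 of 27 monocyte and macrophage genes and 6 of 25 muscle genes were higher. Zbp1 averaged 314.3 ± 22.5 CPM in the IFN-alpha-pMC left libraries and 120.7 ± 2.45 CPM in the pMC left libraries (SD, n = 3 each), a log2 fold change of 1.38 (edgeR adjusted p = 0.00346). Gzmb averaged 23.8 ± 8.80 CPM in the IFN-alpha-pMC left libraries and 3.96 ± 0.31 CPM in the pMC left libraries, a log2 fold change of 2.58 (adjusted p = 0.0053). Ly6c2 averaged 38.2 ± 4.18 CPM in the IFN-alpha-pMC left libraries and 8.49 ± 1.54 CPM in the pMC left libraries, a log2 fold change of 2.17 (adjusted p = 0.00215). For these 3 genes every IFN-alpha-pMC library lay above every pMC library. Among the 6 largest rises against pMC were the striated muscle genes Jph1, Csrp3 and Myoz2. Jph1 and Yipf7 had 0 counts in all 3 pMC left libraries, so their fitted changes give no bound, and Csrp3 averaged 20.5 ± 18.6 CPM in the IFN-alpha-pMC left libraries and 0.156 ± 0.105 CPM in the pMC left libraries (adjusted p = 0.033). Lsmem1 and Slc47a1, also at 0 counts in all 3 pMC left libraries, completed the 6, so the order of these 6 rests largely on fitted values without a bound. The 6 largest falls were Psd2, Tle2, Myrf, Per1, Lama5 and C530008M17Rik, of which Per1 averaged 29.6 ± 6.79 CPM in the IFN-alpha-pMC left libraries and 154.3 ± 52.7 CPM in the pMC left libraries (adjusted p = 0.00989). The count of 572 called genes was 414, 33 and 233 without IFN-alpha-pMC left 1, 2 and 3 and 46, 38 and 34 without pMC left 1, 2 and 3.

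The injected right side showed the same direction for nearly all genes called on the left. Right tumours of IFN-alpha-pMC and control mice share no library with the left ones, although the labels do not say whether both sides came from the same mice. There 1303 genes (8.78%) were higher and 298 (2.01%) lower. Of the 601 genes higher on the left, 441 were also higher on the right, which is 73.4% of the left set and 33.8% of the right set, and 595 had a right estimate above 0. Of the 386 lower on the left, 102 were also lower on the right, 26.4% of the left set and 34.2% of the right set, and 385 had a right estimate below 0. No gene was called in opposite directions. The share of all tested genes with equal sign on both sides was not taken. The right groups also differed in measures that separated the left groups. Read pairs in no feature averaged 4.84% in the IFN-alpha-pMC right libraries and 9.35% in the right controls. Muscle scores were 2.60, 2.80 and 3.79 in the IFN-alpha-pMC right libraries and 1.92, -2.42 and -0.69 in the right controls. Their part in the shared direction was not tested. In the test of the difference itself, the right effect minus the left effect, edgeR called 0 of 14849 genes (0%). At an unadjusted p under 0.05 there were 918, of which 661 had a positive difference. DESeq2 called 86, of which 82 had a positive difference. A positive difference can be a larger rise or a smaller fall on the right. A count of 0 does not show that the sides acted alike. In the T cell list 23 of 28 genes had an unadjusted p under 0.05 for the difference, with medians of 1.18 on the left and 2.85 on the right. Prf1 averaged 4.23 ± 1.06 CPM in the IFN-alpha-pMC left libraries and 32.7 ± 6.87 CPM in the IFN-alpha-pMC right libraries (SD, n = 3 each), and the right effect exceeded the left by 2.68 on the log2 scale (adjusted p = 0.0723). Cd3g averaged 8.42 ± 1.69 CPM in the IFN-alpha-pMC left libraries and 30.4 ± 5.86 CPM in the IFN-alpha-pMC right libraries, a difference in effect of 2.1 (adjusted p = 0.0723). In the interferon gamma list 4 of 24 genes had an unadjusted p under 0.05 for the difference, with medians of 1.22 on the left and 1.55 on the right. Cxcl9 and Iigp1 had the larger estimate on the left: the log2 fold change of Cxcl9 was 1.73 on the left and 1.42 on the right, and that of Iigp1 1.81 on the left and 1.58 on the right (adjusted p of the difference 0.801 and 0.865). Without control right 3 the test of the difference called 13 genes, without control right 2 it called 6 and without IFN-alpha-pMC left 3 it called 1.

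**Figure D4:**
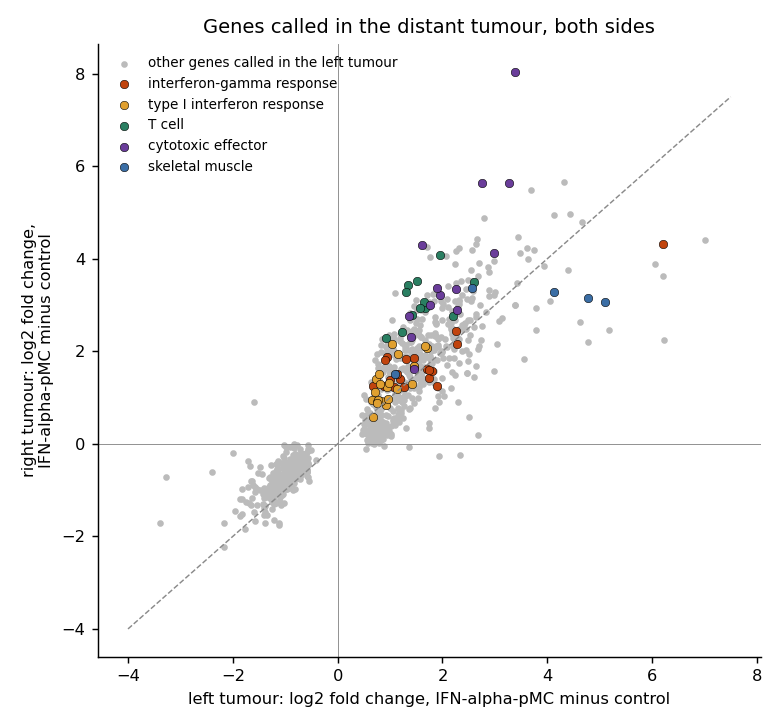
Genes called in the distant tumour on both sides. Each point is 1 gene at its log2 fold change in the left tumour (x axis) and in the injected right tumour (y axis), IFN-alpha-pMC minus control, for the 601 higher and 386 lower genes, with members of 5 lists in colour and a dashed line of equal change. Nearly all lie in the quadrants of equal sign (595 of 601 and 385 of 386), with lymphocyte genes such as Prf1 (1.62 left, 4.30 right) above the line of equal change.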

How the data were processed

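Polyadenylated RNA of mouse tumours was sequenced from stranded mRNA libraries. The deposited files hold raw read counts per gene for 37620 Ensembl IDs, which the authors made with HISAT2 2.1.0 and HTSeq 0.10.0 against mm9 after trimming with Trimmomatic 0.36, per the submitters' processing notes. The sources used here give neither the annotation release nor the strand setting of the counting, so overlapping and antisense genes may share reads. The 5 summary lines of each file stayed out of library sizes and tests, and over the 18 libraries 60.19% to 70.71% of read pairs were assigned to genes and 18.38% to 24.34% aligned more than once. Symbols for 32897 IDs came from a GRCm38 gene table, so no coordinates of the files were used, and promoters came from RefSeq (GRCm38.p6).

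Counts were fitted with edgeR 4.0.16 in R 4.3.3: TMM factors, filterByExpr, 6 group means over all 18 libraries, quasi-likelihood F tests with Benjamini-Hochberg adjustment over 14849 genes and a threshold of 0.05. The common biological coefficient of variation was 23.7% with 12 residual degrees of freedom. Alternatives were DESeq2 1.42.0, relative log expression size factors, no filter on low counts, only the compared groups, a replicate block, the muscle score as covariate, a length and GC offset (96.9% of tested genes had both values), each replicate left out, and, chosen after seeing the data, omission of the 3 libraries least like their groups. Counting intervals and floors cover counting error only. Members, gene lists and tests were chosen with earlier results of these data known. Named genes were the 12 largest rises and falls among called genes of at least 1 CPM without overlap, the main genes and the 4 smallest p-values of each list and the 6 largest changes each way against pMC left (the side contrast had no calls to name); the text takes from these, and says where a gene was chosen after its values were seen. A few results are not reported here.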

Additional observations from a re-analysis of the deposited data

Results flagged for a closer look

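Lines of the count files that no comparison used also separated the left groups. Read pairs that overlapped more than 1 gene made up 2.74% ± 0.02 of the IFN-alpha-pMC left libraries and 2.5% ± 0.09 of the left controls (SD, n = 3 each). Read pairs that did not align made up 2.29% ± 0.08 of the IFN-alpha-pMC left libraries and 2.08% ± 0.03 of the left controls. In both cases all IFN-alpha-pMC libraries lay above all controls, and the exact two-sided permutation p was 0.1, the smallest possible with 3 against 3, before and after adjustment over 4 such measures. Groups of 3 libraries are too small for a search for single outlying values. No named gene had left and right groups that separated in opposite directions, and over all tested genes 22 (0.148%) did.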

How the results depend on the processing

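For the left IFN-alpha-pMC against control comparison, with 987 called genes (601 higher, 386 lower), DESeq2 called 2823, the fit of the compared groups alone 3062, the replicate block 464 (388 higher, 76 lower), the muscle score 142 and the length and GC offset 575. Leaving out the 3 libraries least like their groups (IFN-alpha-pMC left 1, IFN-alpha-pMC right 3 and control right 3) called 4331, and leaving out 1 left replicate called 86 to 494. RLE size factors called 826 and no filter 1219. For the right effect minus the left effect, with 0 calls, DESeq2 called 86, no filter 7, the replicate block 41 and the offset 6. Omission of the 3 libraries called 761 (275 with a positive and 486 with a negative difference), while leaving out 1 replicate called 0 to 13. For IFN-alpha-pMC left against pMC left, with 572 calls, DESeq2 called 1984, the compared groups alone 2538, the block 350, the muscle score 94 and omission of the 3 libraries 4142, and leaving out 1 replicate called 33 to 414. The cause of these shifts was not tested; fits without a replicate also hold fewer samples. The replicate numbers were not taken as pairing: deviations of same-numbered libraries correlated at -0.12, -0.14 and 0.04 between IFN-alpha-pMC left and control left, at 0.3, -0.25 and 0.44 between IFN-alpha-pMC left and right, and at 0.6, 0.12 and -0.02 between control left and right, for numbers 1, 2 and 3.

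Of 105 called genes under the naming rule, 22 kept their call with each left replicate left out, 32 with the muscle score, 66 with the offset, 82 with the block, 101 with DESeq2 and 105 without the 3 libraries. Direction turned only in genes that had not passed. On the log2 scale the offset gave -0.47 for B2m, 0.19 for Csf1r, -0.00603 for Dct, -0.0156 for Ifnar2 and, for the side difference of Iigp1, 0.00229, which was 0.22 without the 3 libraries and ran between -0.53 and 0.0779 with 1 replicate left out. The muscle score gave -0.90 for Acta1. Leaving out 1 left replicate gave -0.0538 to 0.66 for Cd4, -0.23 to 0.38 for Foxp3, -0.0775 to 0.21 for Ifnar1 and a lowest value of -0.0144 for Ifnar2. Foxp3 was -0.0134 without the 3 libraries and Ifnar1 -0.0218 in the compared groups alone. A gene with 0 counts in a library could lie up to 0.128 to 0.209 CPM, depending on depth.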

Other observations

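Several other gene groups were measured in the left tumours, where 4.05% of all tested genes were higher and 2.6% lower. Of 13 tested genes of mature dendritic cells 5 were higher and 0 lower in IFN-alpha-pMC left tumours than in left controls (median log2 fold change 1.14), and none was called without left control 1, 2 or 3. Of 13 genes of macrophage arginine metabolism and polarization 3 were higher and 0 lower (median 1.71), also with no call without any one of those controls. Of 6 mast cell and basophil genes 1 was higher and 1 lower, and of 6 lymphoid structure genes 1 was higher. Of 20 immediate early and stress genes 1 (5%), Atf3, was higher, of 16 TGF-beta genes 1 (6.25%) was higher and of 12 clock genes 1 (8.33%), Per1, was lower. Single calls in lists this small carry little weight beside the shares over all genes. By edgeR no gene passed among 21 of oxidative phosphorylation (median 0.36), 9 of pericytes (-0.42), 7 of erythroid cells (-0.75), 8 of Schwann cells, 6 of adipocytes (-0.17) and 1 of keratinocytes. At an unadjusted p under 0.05 there were 4 of oxidative phosphorylation, 5 of pericytes, 1 of erythroid cells, 3 of Schwann cells, 1 of adipocytes and 0 of keratinocytes. Over all 14849 genes, 5365 had an unadjusted p that low. DESeq2 called 1 pericyte gene lower and 1 Schwann cell gene higher, and none of the other 4 groups. In edgeR fits under other settings, up to 4 pericyte genes, 1 adipocyte gene and 2 oxidative phosphorylation genes were lower, and up to 1 oxidative phosphorylation gene and 1 Schwann cell gene were higher.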
